A study of Homo sapiens with 12 samples.

Results

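Gene expression was compared between 3 arrays titled CD44high and 3 arrays titled CD24high, 6 of the 12 arrays of a study of sorted HMLER cells, on 54613 probe sets. HMLER cells are human mammary epithelial cells transformed with Ras. They form 1 cell line that holds cells of more epithelial and more mesenchymal character in the same culture. Cells labelled CD44high/CD24low and CD44low/CD24high were separated by flow cytometry (FACS) without any treatment, and both populations carry the Ras transformation. The other 6 arrays, titled GD2+ and GD2-, hold cells sorted for the ganglioside GD2 and are used here only beside the values of this sort. Whether the 3 arrays of a group came from separate cultures is not stated, so each p-value reflects array-to-array spread alone, which may be technical.

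CD44 is a cell-surface receptor for hyaluronan and CD24 a small glycosylated surface protein. In breast epithelium, a CD44-high, CD24-low surface profile is known from basal and mesenchymal-like cells. In epithelial-mesenchymal transition (EMT), transcription factors such as ZEB1, ZEB2 and TWIST1 repress genes of cell junctions and polarity, and cells gain an adhesive and secretory programme of mesenchymal type, with fibrillar collagen, fibronectin, N-cadherin and vimentin.

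The array values come without gene names, and no annotation table of the array was used. Gene names below were assigned to 1568 probe sets (889 genes) from general knowledge of this Affymetrix design. Of these, 1439 probe sets were named for genes of the lists, and 129 were added after the values of the most changed probe sets had been seen. A wrong name is therefore possible for any single gene. Of the 889 named genes, 274 appear in at least 1 of the authors' deposited tables, which give a ratio per gene without a probe set, and 615 appear in neither, so that nothing in the files bears on their names. A gene is represented by its probe set with the highest mean over the 6 arrays, and all levels are deposited values on the log2 scale, where a difference of 1 is a doubling.

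The arrays titled CD44high and CD24high did not pair by name with the authors' deposited tables. For the 153 genes of the GD2 table that belong to the lists, minus the natural log of the deposited ratio ran along the log2 difference CD44high minus CD24high with a slope of 1.01, and 193 of 216 rows (89.4%) lay within 0.25 of the nearest probe set of the gene. Against the arrays titled GD2- minus GD2+, 30 of these 216 rows (13.9%) lay that close. The CD44/CD24 table behaved in the opposite way, with 28 of 182 rows (15.4%) within 0.25 of the arrays titled CD44high minus CD24high and 130 of 182 (71.4%) within 0.25 of those titled GD2- minus GD2+. Taking the nearest probe set favours closeness in each of these pairings. When the ratios were taken on the log2 scale, the slope of the GD2 table was 1.46. The sources used here do not say which arrays and which log base stand behind the tables, and the pairings and both logarithms were compared after the data were seen. In the authors' deposited GD2 table, minus the natural log of the ratio was 7.18 for GREM1 and 6.99 for COL3A1, beside log2 differences of 7.25 and 6.97 on the arrays titled CD44high and CD24high. EPCAM had -2.24 in that deposited table and -5.48 in the authors' other deposited table, beside -2.16 on these arrays. CD24 stood at -2.55 and -4.21 in the authors' deposited tables named for GD2 and for CD44/CD24. CD44 stood at -1.06 and -1.44 in the same deposited tables, with the same sign as CD24 in both. The header does not say which population is the numerator of the deposited ratio. Whether the titles of the sorts, or the names of the tables, were exchanged was not tested. If the titles were, the values below would belong to the GD2 sort. The groups are named by array title throughout.

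**Figure D1:**
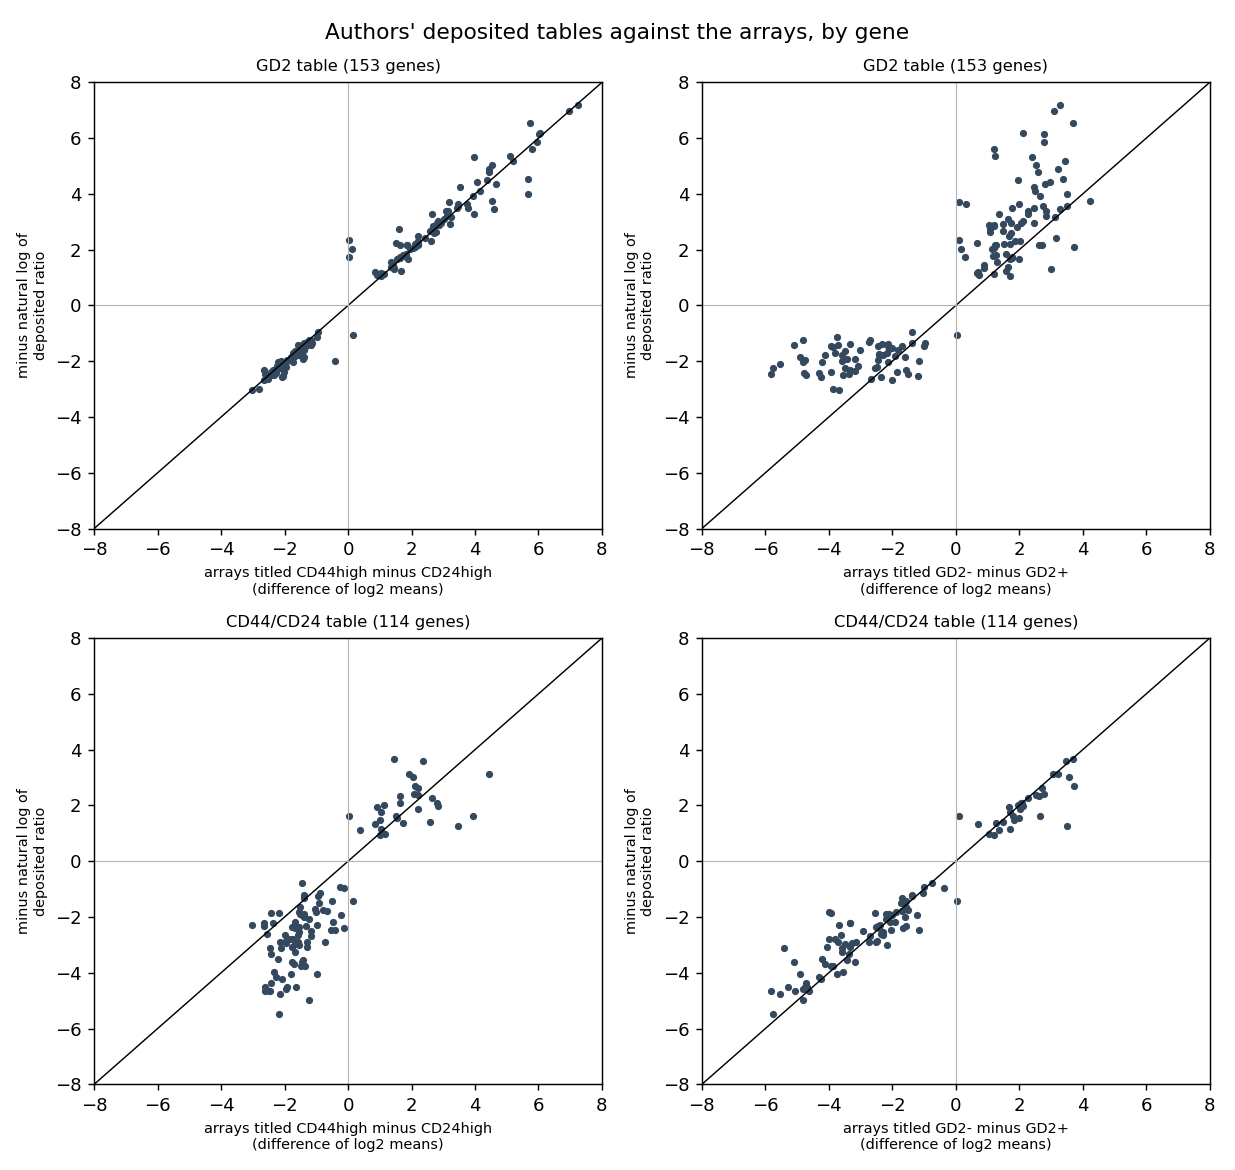
Each point is a named gene of the lists; the x axis is the difference of log2 group means on the arrays and the y axis is minus the natural log of the authors' deposited ratio, with the line of equality. The GD2 table lies along the line for the arrays titled CD44high minus CD24high (slope 1.01), and the CD44/CD24 table along the line for those titled GD2- minus GD2+ (slope 0.888). The slope was 0.867 for the GD2 table against GD2- minus GD2+. It was 1.36 for the CD44/CD24 table against CD44high minus CD24high. A slope of 0.888 alone therefore does not set its pairing apart.

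The 4 genes that check the titles gave an unequal picture. CD24, at the probe set meant to check the titles, was at 10.78, 11.07 and 11.08 on the CD44high arrays, against 12.58, 13.04 and 13.59 on the CD24high arrays. The groups did not overlap, as held for 21.0% of all probe sets. CD24 fell by 2.09 ± 0.23 log2 units (difference ± SE, n = 3 arrays each, limma adjusted p = 0.000789). All 6 of its named probe sets fell, with differences between -2.76 and -1.94. CD44, at its own check probe set, was at 12.17, 12.53 and 12.61 on the CD44high arrays, against 12.19, 12.38 and 12.27 on the CD24high arrays. The CD44 groups overlapped, with a difference of 0.15 ± 0.14 (adjusted p = 0.695). Of the 9 probe sets named CD44, 3 were called lower on the CD44high arrays, with differences of -1.26, -1.14 and -1.01, and 6 were not called. The titles thus matched the CD24 transcript, and no CD44 probe set named here was called higher in CD44high. The CD24 mean was also lower on the arrays titled GD2- (8.03) than on those titled GD2+ (12.27). The match therefore does not show which sort the arrays belong to.

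At the representative probe set of each named gene, GREM1 and COL3A1 had the largest rises in log2 units. They did not have the smallest adjusted p-values. GREM1, whose secreted product blocks bone morphogenetic proteins (BMPs), was at 10.96, 11.78 and 11.26 on the CD44high arrays, against 3.99, 4.19 and 4.06 on the CD24high arrays (difference 7.25 ± 0.19, adjusted p = 3.82e-07). COL3A1, the chain of type III collagen, was at 11.71, 11.01 and 10.41 on the CD44high arrays, against 3.81, 3.78 and 3.64 on the CD24high arrays (difference 7.30 ± 0.27, adjusted p = 2.48e-06). The CD24high values of both genes lie below 4.9 log2 units, the level under which 40% of probe set means fell, so these differences may be bounded by the lower end of the array's range.

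**Figure D2:**
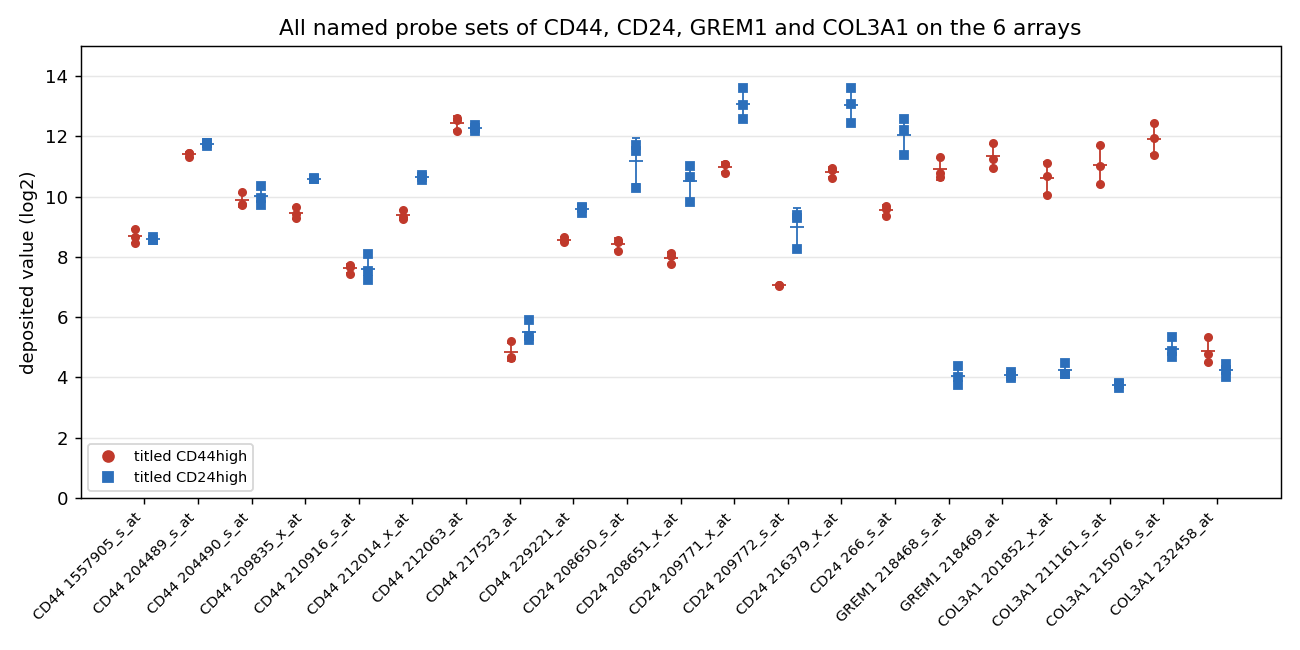
Deposited log2 values of every named probe set of CD44, CD24, GREM1 and COL3A1 on the 3 arrays titled CD44high (circles) and the 3 titled CD24high (squares), with mean and SD. All CD24 probe sets are lower in CD44high, the CD44 probe sets are level or lower, and GREM1 and COL3A1 are higher in CD44high by about 7 log2 units, apart from 1 dim COL3A1 probe set.

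Across the array, 3326 of 54613 probe sets passed an adjusted p of 0.05 (6.09%), 1749 higher (3.2%) and 1577 lower (2.89%) in CD44high. The median difference over all probe sets was -0.0017. Of the 737 list genes with a named probe set, 152 were called higher and 133 lower. Their share called was thus larger than that of all probe sets, and 6.09% is a low background for any list. Large changes were mostly rises: 75 probe sets were called and higher by at least 8-fold (0.137%), against 2 that were lower by as much (0.00366%). The 3 CD44high values all lay above the 3 CD24high values for 5858 probe sets (10.7%) and all below for 5593 (10.2%), 21.0% together. Without CD24high array 2, 1160 probe sets were higher and 1038 lower, without CD44high array 2 these counts were 1056 and 1024, and without CD44high array 3 they were 1088 and 908. On all 12 arrays, the contrast of this difference with GD2+ minus GD2- passed for 5007 probe sets (9.17%). By title, the sorts ran in opposite directions for CD24, GREM1 and COL3A1, so for such genes the contrast adds the sizes of both differences. A pass can therefore follow from the orientation of the titles alone. The 6 arrays had medians between 5.433 and 5.469, and correlated at 0.99 or above with their own group. On the second principal component (16.1% of the variance), CD24high array 3 lay at -36.76, away from CD24high arrays 1 and 2 at 19.44 and 25.45.

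The 15 largest rises among named genes included many of the extracellular matrix, and each of these 15 genes is also listed in the authors' deposited GD2 table. Because that table ran along these same arrays (slope 1.01), the listing may not be independent of them. After GREM1 and COL3A1 came PRRX1, a homeobox factor of mesenchyme, at 10.84, 11.08 and 10.59 on the CD44high arrays, against 4.68, 4.72 and 4.94 on the CD24high arrays. NID1, a basement membrane linker, was at 9.67, 9.13 and 9.27 on the CD44high arrays and at 3.38, 3.39 and 3.42 on the CD24high arrays. PTX3, a secreted pattern recognition protein, was at 9.91, 9.87 and 10.03 on the CD44high arrays and at 4.22, 4.38 and 3.83 on the CD24high arrays. The CD24high arrays thus sat near the lower end of the range for all 3, with a spread far smaller than the gap. ABI3BP, COL1A2, POSTN, FBN1, COL6A3, COL1A1, PRR16, COL6A1, VCAN and ACKR1 completed the list, with differences between 4.57 and 6.01. ACKR1, an atypical chemokine receptor, and PRR16 were named after values were seen.

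The 15 largest falls among named genes were smaller, between 2.48 and 3.03 log2 units. Of the 25 most lowered probe sets of the array, 22 have a name here, and the lowest difference of any probe set was -3.09. ANO1, a calcium-activated chloride channel, was at 4.99, 4.32 and 4.57 on the CD44high arrays, against 7.76, 7.65 and 7.56 on the CD24high arrays. SERPINB13, a serpin of stratified epithelium, was at 6.40, 6.03 and 6.03 on the CD44high arrays, against 9.02, 8.82 and 9.07 on the CD24high arrays. Both were even within groups. For SCEL, KRT15 and SPRR1B, by contrast, the CD24high arrays spread over 2 log2 units or more. Array 1 was the lowest of its group for each of them, in CD44high as well as in CD24high. KRT15, a basal keratin, was at 9.32, 10.04 and 10.20 on the CD44high arrays and at 11.35, 12.74 and 13.36 on the CD24high arrays. The other falls were PKIB, BLNK, ST6GALNAC5, IL1RN, ERBB3, CA2, HS3ST1, EHF, MAP7 and KLK5. EHF is an epithelial Ets factor and ERBB3 a receptor of neuregulins. PKIB, CA2 and MAP7 were named after values were seen.

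**Figure D3:**
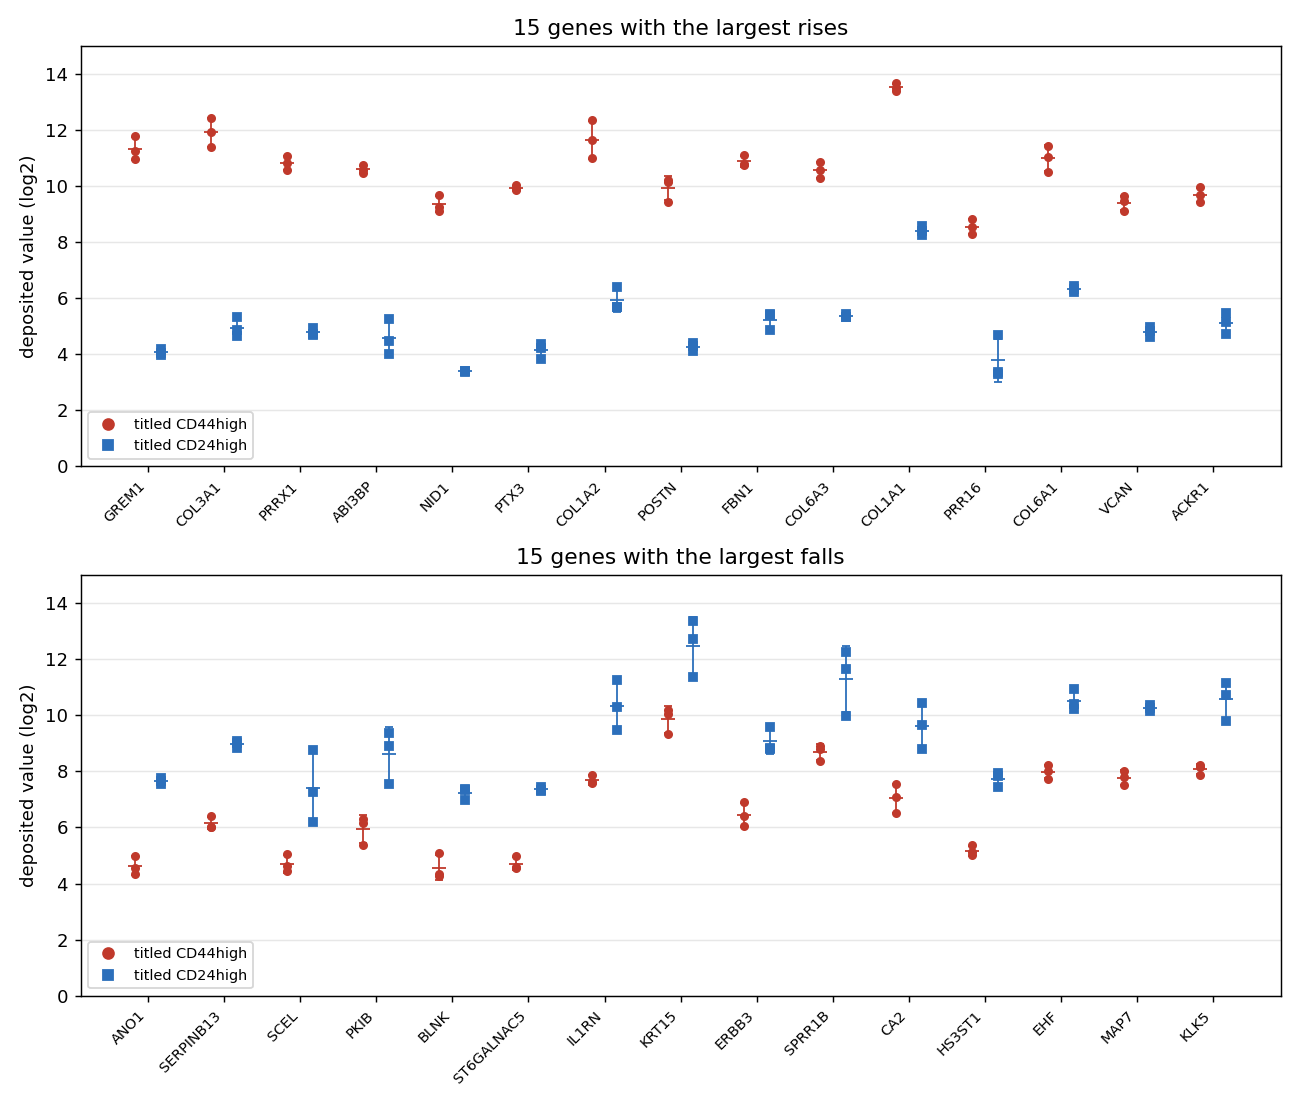
Deposited log2 values of the 15 named genes with the largest rises (top) and falls (bottom), on the 3 arrays titled CD44high (circles, left of each pair) and the 3 titled CD24high (squares), with mean and SD. Rises reach 7.25 log2 units and falls 3.03. The genes were picked among those whose groups do not overlap, as held for 21.0% of all probe sets.

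Among EMT transcription factors, 7 of 15 named genes rose and 2 fell, a share called of 60.0% beside 6.09% of all probe sets. ZEB1, a zinc finger repressor, was at 8.79, 8.99 and 8.99 on the CD44high arrays, against 5.03, 4.92 and 4.88 on the CD24high arrays (15.8-fold higher, adjusted p = 3.84e-07). ZEB2, its paralogue, was at 6.99, 7.04 and 7.26 on the CD44high arrays, against 3.24, 3.37 and 2.83 on the CD24high arrays (15.4-fold higher, adjusted p = 2.90e-06). TWIST1, a basic helix-loop-helix factor, was already well measured in CD24high, with 10.40, 9.86 and 10.19 on the CD44high arrays against 8.13, 7.64 and 8.02 on the CD24high arrays. Rises were also called for PRRX1, TWIST2 (1.02) and TCF4 (1.01), among others. SOX9, a factor of ductal progenitors, fell by 1.13 and FOXC1 by 0.51. The Snail family gave another result: SNAI2 was at 11.98, 12.02 and 11.96 on the CD44high arrays and at 11.93, 12.09 and 11.84 on the CD24high arrays, and SNAI1 was between 4.98 and 5.57 on all 6 arrays. Both Snail genes overlapped between the groups (adjusted p = 0.935 and 0.903).

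The epithelial junction and identity list had the highest share called of the 29 lists, 85.3% beside 6.09% of all probe sets. Of 68 named genes of 70, 58 fell, 0 rose and 10 were not called, and the list's median difference was -1.56 log2 units. CDH1, E-cadherin, averaged 10.87 ± 0.12 on the CD44high arrays, against 12.997 ± 0.203 on the CD24high arrays (SD, n = 3 each, 4.38-fold lower, adjusted p = 3.80e-05). EPCAM, an epithelial adhesion molecule, was at 10.66, 9.83 and 10.20 on the CD44high arrays, against 12.50, 12.21 and 12.46 on the CD24high arrays. ESRP1, a splicing regulator of epithelial isoforms, was at 8.87, 8.36 and 8.70 on the CD44high arrays and at 10.94, 11.12 and 11.20 on the CD24high arrays. Every CD44high value of these 3 genes lay below every CD24high value, as held for 10.2% of all probe sets. CDH1 and EPCAM nevertheless remained well above the array median in CD44high. The smallest adjusted p-values of the list belonged to TMEM30B (a fall of 2.41), MPZL2 (2.20), RAB25 (2.27), ESRP1 (2.45), CDH1 (2.13) and PATJ (1.96). The PATJ probe set behind this value was among those named after the values had been seen, and the PATJ probe set named for the list was dim and not called, at -0.41 (adjusted p = 0.0725). With only the probe sets named for list genes, 56 of 67 genes of the list were lower and 0 higher. MPZL2 is a homophilic adhesion molecule, RAB25 a GTPase of apical recycling and PATJ a scaffold of the Crumbs polarity complex. The fallen genes included epithelial transcription factors of the Grainyhead family (GRHL1, GRHL2 and GRHL3), OVOL1 and OVOL2, tight junction claudins (CLDN1, CLDN4 and CLDN7) and desmosomal cadherins and plaque proteins (DSG3, DSC2, DSC3, DSP, PKP1, PKP2 and PKP3). TJP1, CLDN3, CLDN8, DSG2, ELF3, ELF5, MYH14, PPL, TJP3 and TTC9 did not pass the test, with differences between -0.95 and 0.12.

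The upstream sequences of fallen epithelial genes are shown because ZEB1 and related repressors are known to bind E-box motifs of the letters CAGGTG, or CACCTG on the other strand. Of the 6 genes just listed by adjusted p, the RefSeq promoter table (GRCh38.p14) held TMEM30B, RAB25 and PATJ, and PATJ is not shown because of its uncalled probe set. The 250 bases before the annotated start site are printed 5′ to 3′ on the gene's strand, with each motif in capitals. TMEM30B lies at chr14:61281339-61281588 on the minus strand and RAB25 at chr1:156060910-156061159 on the plus strand.
TMEM30B: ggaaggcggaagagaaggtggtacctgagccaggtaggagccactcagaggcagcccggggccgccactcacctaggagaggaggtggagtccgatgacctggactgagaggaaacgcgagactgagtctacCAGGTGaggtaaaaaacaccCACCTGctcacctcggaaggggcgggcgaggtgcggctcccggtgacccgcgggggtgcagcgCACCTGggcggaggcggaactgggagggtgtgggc
RAB25: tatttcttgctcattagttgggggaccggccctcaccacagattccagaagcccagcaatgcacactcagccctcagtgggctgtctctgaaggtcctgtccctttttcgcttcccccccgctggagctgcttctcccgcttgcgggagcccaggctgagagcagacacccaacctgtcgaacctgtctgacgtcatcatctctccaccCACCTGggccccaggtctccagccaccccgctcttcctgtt
TMEM30B held 3 motifs and RAB25 1. Among all 35116 promoters of the table, 6143 (17.5%) held at least 1 motif in this window on either strand. For the 58 fallen epithelial genes, the table held 40 promoters of 32 genes, of which 17 (42.5%) had a motif. For the 10 epithelial genes that were not called, it held 12 promoters of 8 genes, of which 4 (33.3%) had a motif. For 34 collagen and matrix genes that rose, it held 28 promoters of 25 genes, of which 1 (3.57%) had a motif. A match of letters is a description of the sequence and does not show binding. These shares count promoters and not genes, and whether ZEB1 acts on the fallen genes was not tested.

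Of 24 named genes of the collagen list, 13 rose, 0 fell and 11 were not called (54.2% called beside 6.09% of all probe sets, median 0.79). COL1A1, a chain of type I collagen, was at 13.66, 13.50 and 13.41 on the CD44high arrays, against 8.56, 8.40 and 8.27 on the CD24high arrays. COL1A2, its partner chain, was at 12.35, 11.64 and 10.99 on the CD44high arrays, against 6.41, 5.68 and 5.67 on the CD24high arrays. These pairs of groups lay 5.11 and 5.74 log2 units apart. The type VI chains COL6A3, COL6A1 and COL6A2 rose by 5.20, 4.66 and 3.47, and the type V chain COL5A2 by 3.43. Basement membrane chains COL4A1 and COL4A2 rose by 2.04 and 1.64. COL12A1 rose by 0.80 at its representative probe set, while another of its probe sets fell by 0.46, so its direction is unsettled. Among those that did not pass the test, COL7A1, COL11A1 and COL14A1 lay within 0.25 of 0, while COL13A1 (0.67), COL18A1 (0.60) and COL16A1 (0.43) lay further from it. Of these uncalled genes, COL13A1 and COL11A1 had groups that did not overlap, as held for 21.0% of all probe sets.

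Of enzymes that fold and crosslink collagen, 10 of 15 named genes of 24 in the list rose and 0 fell. The share called was 66.7%, beside 6.09% of all probe sets. LOX, lysyl oxidase, was at 11.27, 11.60 and 11.65 on the CD44high arrays, against 7.38, 7.04 and 8.71 on the CD24high arrays (adjusted p = 0.00038). PLOD1 and PLOD2, lysyl hydroxylases, rose by 0.81 and 1.01, the LOX relatives LOXL1 and LOXL2 by 1.41 and 0.92, and the collagen chaperone SERPINH1 by 1.21. Among matrix glycoproteins and proteoglycans, 21 of 40 named genes rose and 2 fell (57.5% called). NID1, FBN1 (5.66), VCAN (4.60), POSTN (5.66), FBLN5 (4.44) and ABI3BP (6.01) had the smallest adjusted p-values. FBN1 and FBLN5 belong to elastic fibres, VCAN is a large hyaluronan-binding proteoglycan and POSTN a matricellular protein. FN1, fibronectin, was high on all arrays, at 14.41, 14.53 and 14.50 in CD44high and 13.31, 13.76 and 13.43 in CD24high, and rose by 0.98. The microfibril gene MFAP5 went the other way, at 6.32, 6.44 and 6.64 on the CD44high arrays and 8.52, 8.86 and 8.11 on the CD24high arrays. SRPX2 fell by 0.95.

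In the mesenchymal cytoskeleton and adhesion list, 18 of 32 named genes rose and 0 fell (56.2% called beside 6.09% of all probe sets). CDH2, N-cadherin, was at 10.04, 10.11 and 9.75 on the CD44high arrays, against 5.68, 5.62 and 6.16 on the CD24high arrays (17.7-fold higher, adjusted p = 3.34e-06). VIM, vimentin, was at 14.01, 14.19 and 14.26 on the CD44high arrays, against 12.80, 12.37 and 11.87 on the CD24high arrays. Vimentin was thus high in both populations, whereas CDH2 was dim in CD24high. THY1, PDGFRA and CDH11 rose by 2.71, 3.24 and 2.19, FSTL1 by 1.75, FAP by 1.62 and the integrin ITGA5 by 1.43. CAV1, ITGB1, CALD1 and AXL did not pass the test.

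Markers of fibroblasts moved with these groups. Of 18 fibroblast list genes, 13 rose, 1 (MFAP5) fell and 4 were not called (77.8% called beside 6.09% of all probe sets). Their mean level per array was 8.501 to 8.944 in CD44high, against 6.317 to 6.449 in CD24high. TCF21, FBLN1 and CXCL12, which are also on that list, differed by -0.06, 0.07 and -0.18 and did not pass the test. The list shares collagens and TWIST genes with the lists above, and the part of another cell type in these results was not tested. The keratin KRT14 was at 14.08, 14.03 and 13.78 on the CD44high arrays and 14.49, 14.58 and 14.40 on the CD24high arrays. In bulk RNA, fewer cells of a type and less RNA per cell cannot be told apart. Leukocyte markers had 1 of 18 higher (SRGN, 3.22) and 1 lower (CORO1A, a fall of 1.23), and PTPRC, the pan-leukocyte phosphatase, was between 3.88 and 4.18 on all 6 arrays. Endothelial markers had 1 of 12 called (PECAM1, 0.99), with CDH5 between 3.54 and 3.84. Adipocyte markers had 1 of 9 called (FABP4, 3.18), and neural markers 0 of 11.

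**Figure D4:**
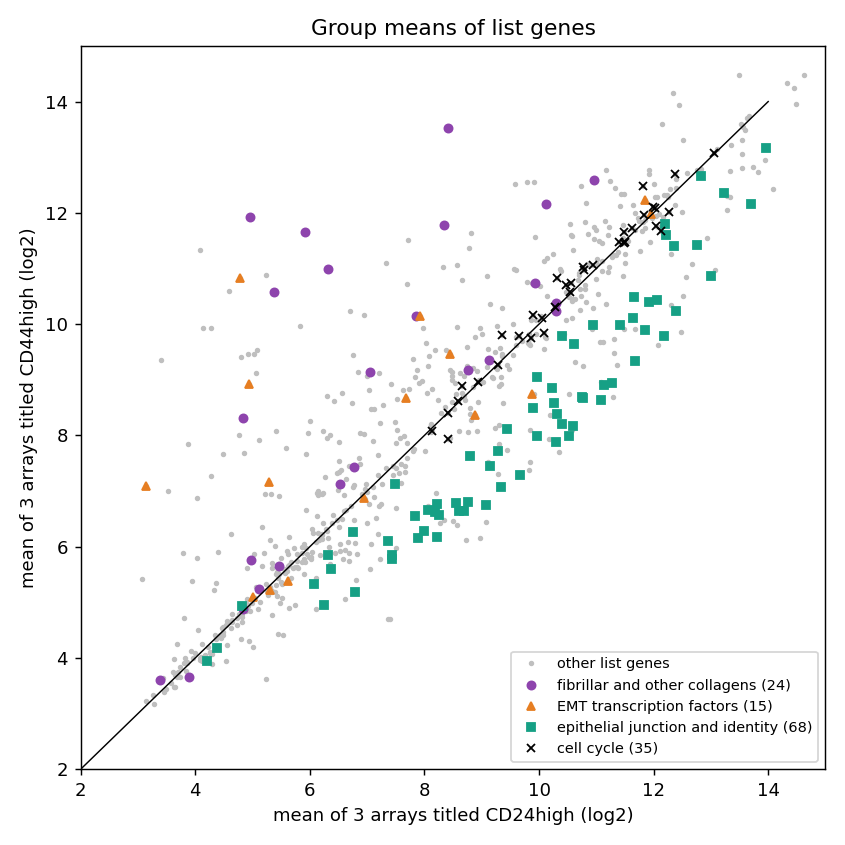
Mean log2 value of the 3 arrays titled CD44high (y axis) against that of the 3 arrays titled CD24high (x axis), for the genes of all lists, with the line of equality. Collagens and several EMT factors lie above the line (COL1A1 by 5.11, ZEB1 by 3.98), epithelial genes below it (CDH1 by 2.13), and cell cycle genes along it.

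Basal and myoepithelial genes fell, 19 of 29 named genes, and 1 rose (69.0% called beside 6.09% of all probe sets). TP63, the p63 transcription factor of basal cells, was at 9.59, 9.79 and 9.66 on the CD44high arrays, against 11.14, 11.23 and 11.01 on the CD24high arrays (adjusted p = 0.000112). TRIM29 fell by 2.10, and the hemidesmosome genes COL17A1, LAMA3 and DST by 1.72, 1.72 and 1.57. KRT5 and KRT14, the basal keratin pair, fell by 0.73 and 0.53. The gene that rose was MME, the CD10 peptidase of myoepithelial cells, at 10.05, 10.28 and 10.38 on the CD44high arrays and 6.60, 6.57 and 6.94 on the CD24high arrays. Luminal genes had 4 of 26 lower and 0 higher (15.4% called), a smaller share than that of all list genes together. KRT18 fell by 1.39, KRT8 by 1.01, ERBB3 by 2.62 and GATA3 by 0.70. Without CD24high array 1, 7 luminal genes were lower, and without _x_at and _s_at probe sets 1 was. GATA3 lost its call without CD44high array 2 or 3, and KRT18 in the fit of all 12 arrays. ESR1, the oestrogen receptor, was between 4.19 and 5.26 on all arrays and did not pass the test (adjusted p = 0.0642).

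Squamous and cornified envelope genes had 12 of 34 lower and 0 higher (35.3% called beside 6.09% of all probe sets). That share was below that of all list genes together. The median difference of the squamous list was -1.48. The CD24high arrays differed among themselves here, since the list's mean per array ran between 7.095 and 8.558 in CD24high, beside 6.32 to 6.579 in CD44high. KRT13, a keratin of mucosal squamous epithelium, was at 5.64, 5.99 and 6.75 on the CD44high arrays and at 7.15, 8.51 and 10.53 on the CD24high arrays. Its values rose with the array number in both groups. Its groups did not overlap, as held for 21.0% of all probe sets, but a difference of -2.61 had an adjusted p of 0.0714. Without CD24high array 1, 25 of the 34 genes were lower, and without CD24high array 2, 6 were. Kallikreins KLK5, KLK8 and KLK10 fell by 2.48, 1.99 and 2.44, and SERPINB13, CSTA and LYPD3 by 2.81, 1.04 and 1.95.

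**Figure D5:**
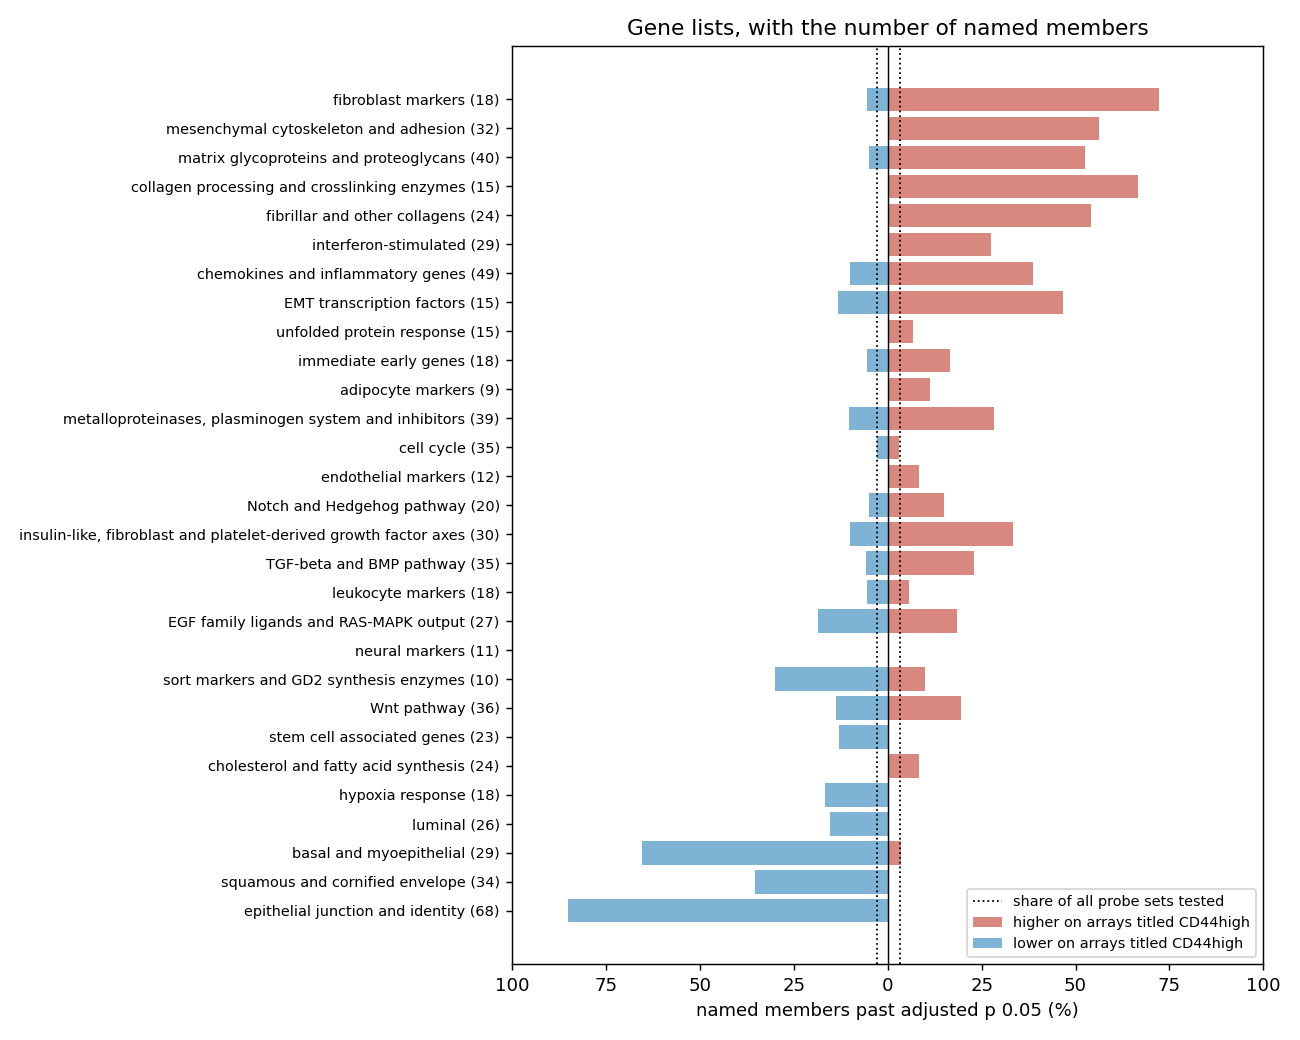
Share of each list's named members (number in brackets) past an adjusted p of 0.05, higher in CD44high to the right and lower to the left, ordered by median difference; dotted lines mark the 3.2% and 2.89% of all probe sets. Matrix and mesenchymal lists extend to the right, the epithelial list (58 of 68) furthest to the left, and the cell cycle list (2 of 35) stays near the dotted lines.

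Chemokines and inflammatory genes rose in 19 of 49 cases and fell in 5 (49.0% called beside 6.09% of all probe sets). CXCL8, a neutrophil chemokine, was at 12.45, 12.21 and 12.91 on the CD44high arrays, against 8.88, 9.39 and 10.49 on the CD24high arrays. IL6 was at 8.38, 7.34 and 9.05 on the CD44high arrays, against 6.12, 5.76 and 6.11 on the CD24high arrays. The neighbouring CXC genes CXCL6, CXCL3 and CXCL1 rose by 3.48, 3.02 and 2.63, and TNFAIP6, a hyaluronan-binding protein, by 4.44. Among the 5 that fell were IL18, by 2.32, IL1RN, by 2.65, and CXCL16, by 1.47. CCL2, ICAM1, NFKB1 and NFKB2 did not pass the test.

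Genes of proteolysis changed in both directions, with 11 of 39 higher and 4 lower (38.5% called beside 6.09% of all probe sets). About the same share was called among all list genes together. TIMP1, an inhibitor of metalloproteinases, was at 12.56, 12.32 and 12.80 on the CD44high arrays, against 9.82, 9.98 and 9.58 on the CD24high arrays. MMP2, a gelatinase, rose by 1.45, and the proteases ADAMTS5, CTSK and CTSB by 0.89, 0.85 and 0.86. MMP14, MMP1 and MMP9 did not pass the test.

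In the TGF-beta and BMP pathway, 8 of 35 named genes rose, 2 fell and 25 were not called (28.6% called beside 6.09% of all probe sets, median 0.02). Of all 737 list genes, 152 rose and 133 fell, a larger share than in this pathway. LTBP1, which holds latent TGF-beta in the matrix, was at 11.17, 11.01 and 11.10 on the CD44high arrays, against 7.62, 7.20 and 7.20 on the CD24high arrays. The coreceptor TGFBR3 rose by 1.36, LTBP4 by 0.78 and the ligand TGFB1 by 0.82. FST, follistatin, fell by 1.58. In the Wnt pathway, 7 of 36 rose and 5 fell. The ligand WNT5A was at 8.23, 7.77 and 7.73 on the CD44high arrays, against 5.91, 4.61 and 4.80 on the CD24high arrays. WNT5B rose by 2.68, the WNT5A receptor ROR1 by 1.86 and FZD1 by 2.67, while the antagonist SFRP1 fell by 1.78 and WNT7A by 0.96. The Notch and Hedgehog list had 3 of 20 higher (HHIP by 3.97, HEY1 by 1.36 and NOTCH2 by 0.70) and 1 lower (JAG2, a Notch ligand, by 1.53). The Wnt list had 33.3% called and the Notch and Hedgehog list 20.0%, also below the share of all list genes together.

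In the list of insulin-like, fibroblast and platelet-derived growth factor axes, 10 of 30 genes rose and 3 fell. That was 43.3% called, beside 6.09% of all probe sets. FGFR1 was at 8.78, 8.55 and 8.43 on the CD44high arrays, against 6.86, 6.76 and 6.57 on the CD24high arrays. FGFR2 was at 6.73, 6.30 and 6.12 on the CD44high arrays, against 8.72, 8.53 and 8.43 on the CD24high arrays. These 2 receptors moved in opposite directions, by 1.86 and -2.18, and FGFR3 fell by 1.76. FGF2, VEGFC, IGFBP4 and PDGFRL were higher by 1.50, 1.04, 2.19 and 2.85. In the EGF and RAS-MAPK list, 5 of 27 rose and 5 fell (37.0% called), slightly below the share of all list genes together. The ligands TGFA and NRG1 fell by 1.82 and 1.56 and the ligand EREG rose by 1.15. ETV1 rose by 1.04 and ETV5 was also called, and both lost their call in the fit of all 12 arrays. The feedback genes DUSP6 (0.02) and SPRY4 (0.41) did not pass the test.

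The ganglioside enzymes also changed unequally. ST8SIA1, the GD3 synthase, was at 6.18, 5.71 and 5.77 on the CD44high arrays, against 3.77, 3.29 and 4.30 on the CD24high arrays (4.28-fold higher, adjusted p = 0.00103). B4GALNT1, which makes GD2 from GD3, was between 6.74 and 7.19 on all 6 arrays (adjusted p = 0.81). ST6GALNAC5, a sialyltransferase that acts on other gangliosides, fell by 2.66. Of 23 stem cell associated genes, 0 rose and 3 fell (13.0% called beside 6.09% of all probe sets). This share was below that of all list genes together. ALDH1A3, an aldehyde dehydrogenase, fell by 1.99, the transporter ABCG2 by 1.41 and the integrin ITGA6 by 0.48.

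The cell cycle, unfolded protein response and lipid synthesis lists stayed near the background of 6.09%. Cell cycle genes had 1 of 35 higher (TYMS, 0.68) and 1 lower (PCNA, a fall of 0.46), and MKI67 differed by 0.05. The unfolded protein response had 1 of 15 called, SEL1L at 0.46. Cholesterol and fatty acid synthesis had 2 of 24 higher, and both were fatty acid desaturases, FADS1 (1.77) and FADS2 (1.03). Hypoxia genes had 3 of 18 lower, SLC2A1, NDRG1 and ERO1A, by 0.80, 0.90 and 0.60. Immediate early genes had 3 of 18 higher and 1 lower, with CCN2 and CCN1 higher by 2.58 and 1.45 and EGR3 lower by 1.33. Interferon-stimulated genes had 8 of 29 higher and 0 lower, led by IFIT3 (1.57), IFITM1 (2.30) and GBP1 (1.19), while MX1 (0.47) did not pass the test. The hypoxia, immediate early and interferon lists had 16.7%, 22.2% and 27.6% called, below the share of all list genes together.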

How the data were processed

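Total RNA of sorted HMLER cells was labelled with biotin and hybridized to Affymetrix arrays, per the labels' protocols. Log2 values were used as deposited; their scale was read from the values, and the sources used here do not say how the authors normalized and summarized probes. Their deposited tables give an adjusted p-value and a ratio (with its reciprocal) per row and gene symbols without probe sets. No source used here says which arrays and which test gave those deposited values.

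Groups follow the array titles. After 62 control probe sets were left out, limma 3.58.1 (lmFit and eBayes, R 4.3.3) was fitted to 54613 probe sets on the 6 arrays, with Benjamini-Hochberg adjustment over all of them and a threshold of 0.05. The number of arrays, 3 per group, limits the precision. No annotation table was used. The plan was to name genes from such a table and, without one, only where a file or the rule of this comparison pairs gene and probe set. That rule asks for known array annotation, and it was followed by naming probe sets from general knowledge, a departure from the narrower reading of the plan. Of 809 list genes, 737 received a probe set and 72 did not. Names were kept whether or not they matched the deposited tables. The 29 gene lists, the comparison and the rule for named genes were chosen with earlier results of these data known. That rule takes the 15 largest called rises and falls without overlap between groups, all probe sets of CD44, CD24, GREM1 and COL3A1, and up to 6 members per list by adjusted p; other genes named were picked after their values were seen. Some genes of the lists are counted but not reported here by name. Table symbols were updated through RefSeq symbols and synonyms, and rows of a gene were averaged for slopes. All 889 named genes but 1 had a current RefSeq symbol.

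The fit was tested on simulated data. It recovered 97% of changes of 2 log2 units, 49.3% of changes of 1 and 2.99% of changes of 0.5. Of 105 calls, 6 were false. A gene that was not called may thus still differ. The simulation changed far fewer probe sets than were called here, so these shares need not hold for the real arrays. Alternatives tried: quantile normalization; centring on array medians; removal of the 40% dimmest probe sets; removal of probe sets with the suffix _x_at or _s_at; eBayes with trend and robust; a minimum fold of 2; a replicate block; all 12 arrays; each array left out in turn; the most variable probe set per gene; and, added after the data were seen, only probe sets named for list genes.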

Additional observations from a re-analysis of the deposited data

Results flagged for a closer look

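For CD24, GREM1 and COL3A1, the difference CD44high minus CD24high was not the same as the difference GD2+ minus GD2- on the arrays so titled, by a limma contrast of the 2 differences over all 12 arrays. CD24 differed by -2.09 between CD44high and CD24high and by 4.24 between GD2+ and GD2-, a difference of -6.33 log2 units (adjusted p = 1.72e-06). GREM1 differed by 7.25 and by -3.27, a difference of 10.53 (adjusted p = 0.00149). COL3A1 differed by 7.30 and by -4.05, a difference of 11.35 (adjusted p = 0.000361). CD44 differed by 0.15 and -0.05, and its contrast did not pass the test (0.21, adjusted p = 0.77). Of all probe sets, 5007 (9.17%) passed this contrast. For CD24, GREM1 and COL3A1 the contrast adds the sizes of 2 differences of opposite sign. A pass does not by itself show that the sorts separate different genes. Arrays titled GD2+ were uneven for GREM1, at 4.59, 8.84 and 8.88, beside 8.62, 10.76 and 12.74 on arrays titled GD2-. Why the sorts run in opposite directions by title was not tested.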

How the results depend on the processing

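CD24, GREM1 and COL3A1 kept their direction and call, and CD44 stayed without one, under every alternative in which their probe sets remained; the check probe sets of CD24 and COL3A1 are dropped when _x_at and _s_at probe sets are left out. Against 1749 probe sets higher and 1577 lower, there were 1092 and 1030 without _x_at and _s_at probe sets (fewer were tested), 751 and 578 at a fold of at least 2, and 864 and 837 in the fit of all 12 arrays. Leaving out each array gave 1056 to 1770 higher and 908 to 1543 lower; the counts moved by over 1.5 times without CD24high array 2 (1160 and 1038), CD44high array 2 (1056 and 1024) and CD44high array 3 (1088 and 908). Without _x_at and _s_at probe sets, many members lose their probe set, and counts were 7 for collagens, 11 for matrix glycoproteins, 7 for mesenchymal genes, 4 for fibroblast markers and 11 for chemokines (higher), and 1 for luminal and 6 for squamous genes (lower). All 12 arrays gave 11 mesenchymal and 11 chemokine genes higher and 10 basal genes lower, and a fold of at least 2 gave 12 basal genes lower; the cause was not tested for the fit of 12 arrays. Leaving out each array gave 5 to 25 squamous and 3 to 7 luminal genes lower. The epithelial list had 53 to 58 genes lower when single arrays were left out, 40 in the fit of 12 arrays and 39 without _x_at and _s_at probe sets. Using only the probe sets named for list genes, an alternative chosen after seeing the data, changed the counts of that list alone, to 56 of 67 lower. Of 131 other named genes, 44 lost their call under at least 1 alternative, 33 of them with all 12 arrays, 21 at a fold of at least 2 and 20 when at least 1 array was left out, and 0 reversed. Those 20 were ABCG2, EGR3, ERO1A, GATA3, GM2A, HEY1, IFIT1, IFIT2, ITGA6, KLF2, LYPD3, NDRG1, NOTCH2, PCNA, SCEL, SEL1L, SLC2A1, SPRR1B, TGFB1 and TYMS. The fit of 12 arrays also ended the calls of, among others, ALDH1A3, CA2, CDH11, CSTA, CTSK, CXCL16, EHF, FBLN5, FST, IFIT3, KRT18, LOXL2, LTBP4, MMP2, NRG1 and ROR1.

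Same-numbered arrays of the 2 groups deviated from their group means with r = 0.0877, 0.354 and 0.0787 across probe sets. CD44high arrays 2 and 3 correlated best with the CD24high array of the same number. CD44high array 1 correlated best with CD24high array 3 (r = 0.18). The labels do not say what a number marks, so the numbers were not taken as pairs. Whether they mark a shared culture or day was not tested. A replicate block gave 2268 probe sets higher and 1930 lower, and 22 squamous genes lower. Without the block these counts were 1749, 1577 and 12. Values near the array's lower end bound the rises of genes that are dim in CD24high.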
